A study of Mus musculus with 6 samples.

Results

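The Fox, Gata, Sox, Pax and Tbx families hold transcription factors that set the identity of germ layers, organs and cell lineages. Of the 21938 protein-coding genes of GENCODE M21, 89 belong to them by symbol when *Sox2* and *Tbx3*, which are expressed in stem cells, are left out: 44 Fox, 18 Sox, 6 Gata, 9 Pax and 12 Tbx genes. Each gene was set against 11106 merged peaks of acetylated lysine 56 of histone H3 (H3K56ac) on mm10. The cells were V6.5 mouse embryonic stem cells (mESCs) kept on feeder cells and infected with lentivirus carrying a Scramble or a *Sirt6* shRNA. H3K56ac ChIP-seq was done with 2 Scramble and 2 Sirt6 knockdown libraries, and each condition had 1 input library. The peaks were merged across libraries and carry positions only, so Scramble and knockdown cells could not be compared. No value for a library, no replicate error and no depth stands behind the numbers given here. The authors reported a global increase of H3K56ac peaks in the knockdown cells, so a merged peak need not be present in Scramble cells.

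Fork-head (Fox), SRY-related (Sox), GATA, paired-box (Pax) and T-box (Tbx) proteins each bind DNA through the domain that names their family, and most are switched on only when a stem cell leaves the pluripotent state. In mESCs the promoters of many such genes lie in CpG islands, stretches rich in CpG dinucleotides, which can carry Polycomb marks while the gene is silent. H3K56ac lies where DNA enters and leaves the nucleosome, is found at promoters and enhancers of active genes, and is removed by SIRT6.

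In all, 13 of the 89 genes (14.6%) had a peak with any base within 3 kb of a transcription start site (TSS), against 37.4% of all protein-coding genes. They were *Foxa3*, *Foxd3*, *Foxh1*, *Foxj3*, *Foxk2*, *Foxm1*, *Foxn3*, *Foxo3*, *Foxp1*, *Sox4*, *Sox12*, *Sox13* and *Sox15*. The 95% Wilson interval of the families' share was 8.74% to 23.4%. Intervals of shares cover counting error only, and paralogous genes are not independent of each other. A gene without a merged peak may still carry some H3K56ac below what the peak caller accepted.

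The sequences that show the contrast within paralogous groups are given here 5′ to 3′ on the strand of the gene, from RefSeq (GRCm38.p6), as 250 bases before and 50 after the RefSeq start, with CpG dinucleotides in capitals. *Foxo3* and *Foxo1* are paired because the first had the widest peak near any of the 89 genes and the second had none near it. The 3 genes of the Sox C group follow, of which *Sox11* had no peak, and *Sox15* is shown as a CpG-poor promoter with a peak.
Foxo3, peak, chr10:42276646-42276945, minus strand: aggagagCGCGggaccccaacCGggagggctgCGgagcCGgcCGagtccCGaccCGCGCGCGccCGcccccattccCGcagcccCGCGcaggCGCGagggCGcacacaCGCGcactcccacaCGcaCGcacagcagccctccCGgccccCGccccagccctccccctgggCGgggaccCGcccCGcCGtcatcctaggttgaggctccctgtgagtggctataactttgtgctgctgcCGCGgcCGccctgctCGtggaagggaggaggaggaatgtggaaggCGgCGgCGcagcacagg
Foxo1, no peak, chr3:52268087-52268386, plus strand: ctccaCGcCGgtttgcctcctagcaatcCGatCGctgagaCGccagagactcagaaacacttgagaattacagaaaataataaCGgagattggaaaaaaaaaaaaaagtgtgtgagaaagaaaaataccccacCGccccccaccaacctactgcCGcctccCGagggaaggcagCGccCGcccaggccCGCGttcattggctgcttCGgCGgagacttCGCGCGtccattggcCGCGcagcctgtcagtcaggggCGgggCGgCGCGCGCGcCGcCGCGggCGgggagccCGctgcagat
Sox4, peak, chr13:28953650-28953949, minus strand: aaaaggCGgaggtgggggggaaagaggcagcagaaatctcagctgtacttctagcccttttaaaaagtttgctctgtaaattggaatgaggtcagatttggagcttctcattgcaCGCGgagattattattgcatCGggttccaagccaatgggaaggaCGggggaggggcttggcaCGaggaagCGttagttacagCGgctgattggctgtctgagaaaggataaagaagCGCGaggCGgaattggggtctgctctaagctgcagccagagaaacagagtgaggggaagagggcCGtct
Sox12, peak, chr2:152397997-152398296, minus strand: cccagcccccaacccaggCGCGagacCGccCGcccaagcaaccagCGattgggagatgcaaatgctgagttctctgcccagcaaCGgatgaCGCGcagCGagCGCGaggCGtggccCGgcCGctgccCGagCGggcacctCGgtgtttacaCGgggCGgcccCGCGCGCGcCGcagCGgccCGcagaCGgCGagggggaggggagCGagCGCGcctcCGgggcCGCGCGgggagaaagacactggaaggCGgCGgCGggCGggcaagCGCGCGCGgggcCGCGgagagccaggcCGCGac
Sox11, no peak, chr12:27342669-27342968, minus strand: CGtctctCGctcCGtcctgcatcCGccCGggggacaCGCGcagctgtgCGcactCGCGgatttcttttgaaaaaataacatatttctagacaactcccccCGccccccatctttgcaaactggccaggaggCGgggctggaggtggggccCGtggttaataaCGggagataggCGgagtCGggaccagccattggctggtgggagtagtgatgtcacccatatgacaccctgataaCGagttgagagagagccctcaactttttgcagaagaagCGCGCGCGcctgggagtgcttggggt
Sox15, peak, chr11:69654787-69655086, plus strand: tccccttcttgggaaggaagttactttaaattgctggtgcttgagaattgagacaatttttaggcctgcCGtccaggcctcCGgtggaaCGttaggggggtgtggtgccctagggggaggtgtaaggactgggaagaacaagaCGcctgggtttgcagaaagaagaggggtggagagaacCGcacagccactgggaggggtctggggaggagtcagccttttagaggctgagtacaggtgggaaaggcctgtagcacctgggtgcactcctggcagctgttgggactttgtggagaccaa

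The *Foxo3* promoter held 35 CpG in 300 bases, and all of it lay inside the peak. *Foxo1* held 31 CpG and its nearest peak edge was 133 kb away. The *Sox4* promoter, with 12 CpG, had fewer than that of *Sox11*, with 21, although only the *Sox4* promoter reached into a peak, with 97 of its bases. *Sox12* held 47 CpG and *Sox15* held 5, and 300 and 246 of their bases were inside a peak. These promoters were picked for their contrast and stand for no rule. The number of CpG per 100 bp within 500 bp of the 5′ end was taken over all CpG-rich genes of the families. Its median was 9.49 with a peak near any start (9 genes) and 7.64 without (50 genes). Among all CpG-rich protein-coding genes the medians were 7.09 with and 7.19 without, so that difference was not seen there. The RefSeq start differed from the gene start in GENCODE by 144 bp for *Sox11* and by 277 bp for *Sox15*, and by at most 60 bp for the others. RefSeq promoter sequences were matched for 60 of the 89 genes.

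*Foxd3*, a repressor known for its part in pluripotency and in neural crest, had its peak inside the coding exon and not over the start. *Foxd3* has 1 exon, and all 442 bases of its peak were coding sequence. The peak edge was 599 bp and its midpoint 820 bp downstream of the TSS.

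By the symbol rule, the peaks fell to the Fox and Sox families. Left out of these family counts were *Sox2* and *Tbx3*, which both had a peak. T-box genes with other symbols were left out too, and of these *Mga* had a peak. In detail, 9 of 44 Fox genes (20.5%, interval 11.2% to 34.5%) and 4 of 18 Sox genes (22.2%, 9% to 45.2%) had a peak. None of 6 Gata, 9 Pax and 12 Tbx genes did, counts of 0 that allow shares of up to 50.0%, 33.3% and 25%. The intervals of all 5 families overlap, so no order among them is drawn. For *Gata1*, the erythroid factor, the nearest peak edge was 15.0 kb away, and for *Gata4* and *Gata6*, which drive primitive endoderm, it was 19.0 and 325 kb away. For *Pax6*, needed for the eye, it was 652 kb away. *Tbx6*, a factor of paraxial mesoderm, had the nearest peak of all genes outside the limit, at 3.59 kb, and the midpoint of that peak was 17 bp from a start of *Ypel3*. At the other side of the limit, *Foxa3* had its peak edge 1.07 kb from the TSS. None of the 6 genes on the X chromosome (*Foxo4*, *Foxp3*, *Foxr2*, *Gata1*, *Sox3* and *Tbx22*) had a peak, which allows up to 50.0%. Of all X-linked genes 15.6% had one, so no contrast is drawn.

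**Figure D1:**
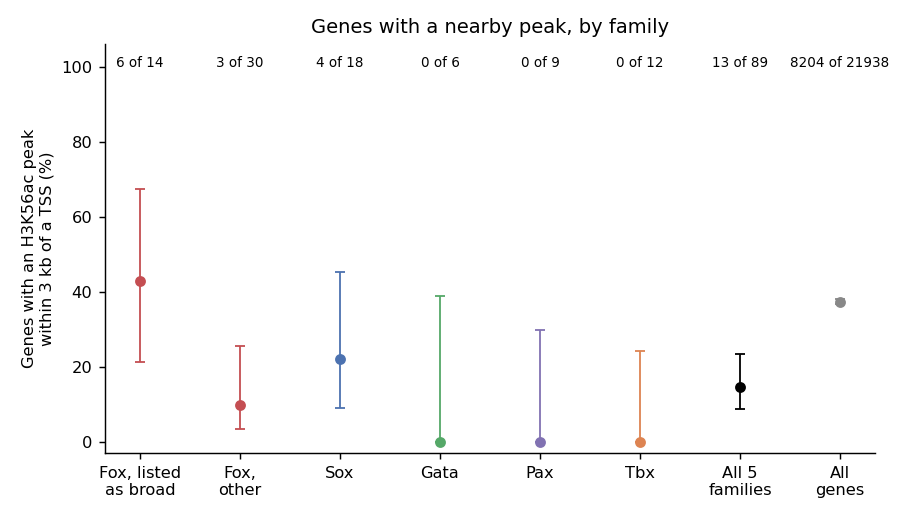
Share of genes with a peak within 3 kb of a TSS (%), with 95% Wilson intervals as bars and counts above each point. The 14 fork-heads listed as broadly expressed stand at 42.9%, the other 30 Fox genes at 10.0%, and all protein-coding genes at 37.4%. Gata, Pax and Tbx genes stand at 0, with *Tbx3* left out by the rule.

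The Fox family was then split by a hand-made list, since no expression was measured here. The list holds 14 fork-heads of the J, K, M, N, O and P groups, most of them described in many tissues, although *Foxo6* and *Foxp2* are known for narrower expression. Of the 14, 6 (42.9%, interval 21.4% to 67.4%) had a peak, a share near the 37.4% of all genes. But 13 of the 14 are CpG-rich by a ratio described further on, and 5 of these 13 had a peak (38.5%, 17.7% to 64.5%). That is lower than the 62.0% of all CpG-rich genes, a share that lies inside the interval. These 6 were *Foxj3*, *Foxk2*, *Foxm1*, *Foxn3*, *Foxo3* and *Foxp1*. Of the other 30 Fox genes 3 had a peak (10.0%, 3.46% to 25.6%), namely *Foxa3*, *Foxd3* and *Foxh1*. With every gene of those 6 groups, so that *Foxj1*, *Foxn1*, *Foxn4* and *Foxp3* count too, it was 6 of 18 (33.3%), and 3 of 26 in the other Fox groups. Without the 14 listed fork-heads, 7 of 75 genes of the 5 families were left with a peak (9.33%, 4.59% to 18%).

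Genes were also grouped by lineage, from lists that name a gene for its best known role. The lists were made with earlier results of these data known, so their counts are description only. Beside them stand shares of 37.4% of all genes, 62.0% of all CpG-rich and 16.5% of all CpG-poor genes. In the endoderm list 1 of 7 genes had a peak, *Foxa3*, a pioneer factor of the liver, while *Foxa1*, *Foxa2*, *Gata4*, *Gata6*, *Sox7* and *Sox17* had none. Only 2 of these 7 are CpG-rich. In the neural and neural crest list 1 of 14 did, *Foxd3*, and *Sox1*, *Sox3*, *Sox9* and *Sox10* were among those without. *Sox3* lay farthest from any peak of the 89 genes, at 2854 kb. None of 14 mesoderm and heart genes had a peak, which allows up to 21.4%. They include *Foxc1*, *Foxf1*, *Gata5*, *Tbx1*, *Tbx5* and *Tbx20*, 11 of the 14 are CpG-rich by the ratio described further on, and *Tbx6* came closest. None of 6 blood and immune genes did (*Gata1*, *Gata2*, *Gata3*, *Pax5*, *Tbx21* and *Foxp3*), which allows up to 50.0%. Of 4 genes listed for roles in mESCs or epiblast, 3 had a peak: *Foxd3*, which also stands in the neural and neural crest list, *Foxh1* and *Sox15*. *Foxo1* was the exception.

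Genes outside the symbol rule give the range that such counts span in these data. All 8 stem cell markers listed (among them *Pou5f1*, *Nanog* and *Esrrb*) had a peak and none of 8 markers of feeder fibroblasts did, which allows up to 37.5%. Only 1 of these 8 feeder markers is CpG-rich, against 3 of the 8 stem cell markers. Of all CpG-poor genes 16.5% had a peak, so little is read from the 0. *Sox2*, the partner of *Pou5f1*, had a peak of 9909 bp, and *Tbx3* had peaks of 8440 and 3245 bp, so adding them gave 15 of 91 genes (16.5%). A list of 50 other developmental regulators holds mainly homeobox, basic helix-loop-helix and similar factors. It also holds the T-box genes *T*, *Eomes*, *Tbr1* and *Mga* and the Sox relative *Sry*, whose symbols the rule does not match. Of the 50, 5 had a peak (10.0%, interval 4.35% to 21.4%), among them *Mga*, *Dlx2*, *Eya1* and *Tfap2c*. That interval overlaps the one of the 5 families.

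At the 13 genes lay 15 peaks, and 11 of them covered a TSS of the gene. Of their midpoints, 8 were in exons, 6 in introns and 1 outside the gene. The median width was 647 bp (interval of the median 567 to 2324 bp), against 1117 bp for the 7835 peaks within 3 kb of any protein-coding gene's TSS. Peaks of 3 kb or wider were 1 of 15 at these genes (6.67%) and 7.68% of the larger set. The intervals of both medians overlap, from 1089 to 1138 bp in the larger set. Leaving out *Foxa3*, the only gene whose peak lay over 1 kb from a start, moved the median of the remaining 14 peaks to 1226 bp.

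**Figure D2:**
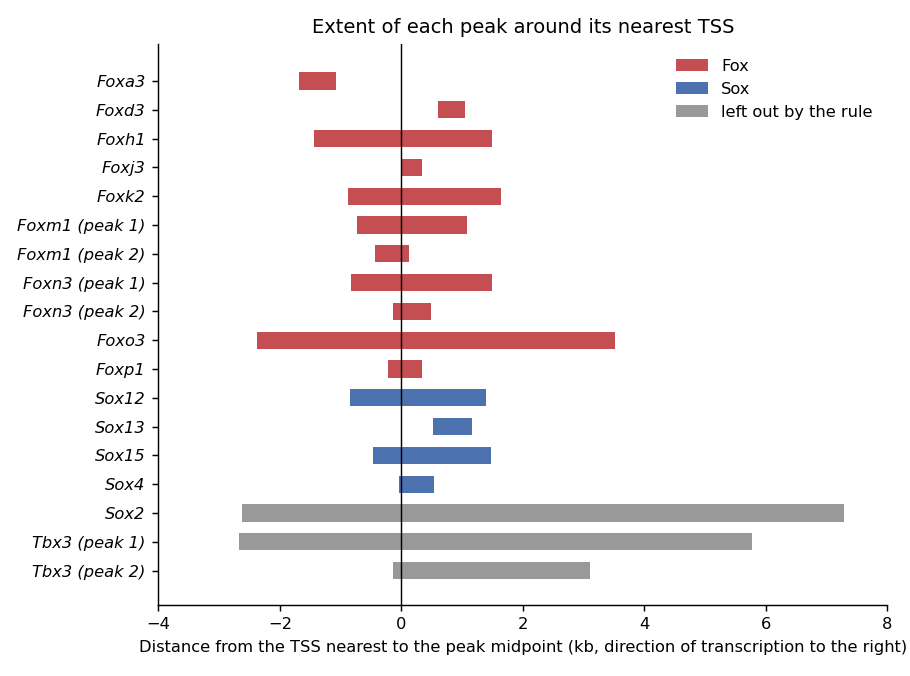
Extent of each peak in kb around the TSS nearest to its midpoint, with transcription to the right; red bars are Fox genes, blue bars Sox genes, and grey bars *Sox2* and *Tbx3*. *Foxo3* has the widest bar of the 13 genes (5891 bp). *Foxd3*, *Foxj3* and *Sox13* lie wholly downstream of the start, and *Foxa3* lies wholly upstream.

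*Foxo3*, a factor held in the cytoplasm by insulin signalling and active in stress resistance, had the widest peak, 5891 bp at chr10:42273176-42279066. It covered 4 of the 5 annotated starts of the gene. *Foxh1*, which brings SMAD proteins to Nodal target genes, followed with 2941 bp at chr15:76668304-76671244, over both of its starts. That peak reached to within 1 kb of a start of *Ppp1r16a*, and 40.9% of its bases were *Foxh1* coding sequence. *Foxk2*, a repressor with roles in autophagy and metabolism, had 2510 bp at chr11:121259119-121261628 over 1 of its 3 starts. *Sox12* had 2239 bp at chr2:152396655-152398893, over both of its starts. *Sox15*, the only member of the Sox G group, had 1955 bp at chr11:69654841-69656795, with its TSS inside. *Sox4* had 567 bp at chr13:28953180-28953746, which reached 534 bases into its exon and none of its coding sequence.

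*Foxm1*, which drives genes of mitosis, had 2 peaks. The wider, 1804 bp at chr6:128362242-128364045, covered the gene start and also a start of *Rhno1*, its divergent neighbour, so it cannot be given to either gene. The narrower, 569 bp at chr6:128366846-128367414, covered 2 further starts, with its midpoint 4163 bp downstream of the gene start. *Foxa3* had a neighbour too. Its peak of 619 bp at chr7:19024610-19025228 lay outside the gene, and its midpoint was nearer to a TSS of *Sympk* than to that of *Foxa3*. The peak of *Foxj3* (342 bp at chr4:119540523-119540864) began 1 bp after a start of that gene and had a start of *Frg2f1* within 1 kb. Without peaks that had another gene's start within 1 kb, 10 of 89 genes (11.2%) kept a peak, against 27.3% of all genes. Of genes with a peak, 76.9% in the families and 73.1% of all kept one, and *Foxa3*, *Foxh1* and *Foxj3* did not.

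In several of the long genes the peak lay at or near an inner start and not at the annotated 5′ end. In *Foxp1*, a gene with 22 starts, the peak (555 bp at chr6:99027654-99028208) lay 494790 bp downstream of the 5′ end. In *Foxn3*, with 14 starts, peaks of 2324 bp at chr12:99391581-99393904 and 619 bp at chr12:99412121-99412739 lay 170840 and 151152 bp downstream. In *Sox13*, of the Sox D group, the peak (647 bp at chr1:133384357-133385003) lay 39697 bp downstream, 523 bp from the start of a transcript annotated as a retained intron, and counting starts of protein-coding transcripts only removed it. In *Foxj3* the distance was 3690 bp. Counting the 5′ end of each gene alone gave 9 of 89 genes (10.1%), against 35.1% of all, and the 5′ end itself was inside a peak in 7 (7.87%), against 19.7% of all genes. Among genes with a peak, the 5′ end was covered in 7 of 13 (53.8%) of these families and in 52.7% of all, a share inside the families' interval of 29.1% to 76.8%.

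Peaks were also counted by group of paralogues. Fox genes fall into 19 lettered groups here, and in 10 of them, with 18 genes, no gene had a peak, among them Fox B, C, F and L. Of the 8 Sox groups, 5 with 11 genes had none. Sox B1 (*Sox1* and *Sox3*), the nearest relatives of *Sox2*, were among them, as were Sox B2, E, F and H. In the 9 groups of several genes that had any peak, 10 of 30 genes had one, and in 8 of these groups it was 1 gene. These groups were picked for having a peak, so nothing about paralogues is read from the 10 of 30. Over all genes the share was 37.4%, but most genes of these groups were CpG-rich, a class where it was 62.0%. *Foxk2* had a peak and *Foxk1* did not. *Foxo3* had one, while for *Foxo1*, *Foxo4* and *Foxo6* the nearest was 133, 31.9 and 119 kb away. *Foxp1* had one and *Foxp2*, *Foxp3* and *Foxp4* none, *Foxn3* one and *Foxn2* none, and *Foxj3* one and *Foxj2* none. Sox C, whose genes act in neural and mesenchymal progenitors, was the group with 2 of 3.

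CpG content was the next question, since genes with CpG-rich promoters make up most genes with a peak in these data. The ratio of observed to expected CpG was taken within 500 bp of the 5′ end, and genes above 0.6 were called CpG-rich. By this measure 59 of the 89 genes were CpG-rich, and 9 of them (15.3%, interval 8.24% to 26.5%) had a peak, against 62.0% of all 10078 CpG-rich genes. Of the 30 CpG-poor genes 4 had one (13.3%, 5.31% to 29.7%), against 16.5% of all CpG-poor genes. The background share lay outside the families' interval for CpG-rich genes. For CpG-poor genes it lay inside by this definition, but with CpG-rich set at a ratio of at least 0.75 and at least 55% GC, 5 of 53 CpG-poor genes had a peak (9.43%, interval 4.10% to 20.3%) against 28.3% of all. By 5′ end alone, the count of CpG-rich genes was 6 (10.2%), where it was 60.5% of all CpG-rich genes. The 4 CpG-poor genes were *Foxj3* (ratio 0.180), *Foxh1* (0.293), *Sox15* (0.512) and *Foxa3* (0.595), and the last lay close to the limit.

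**Figure D3:**
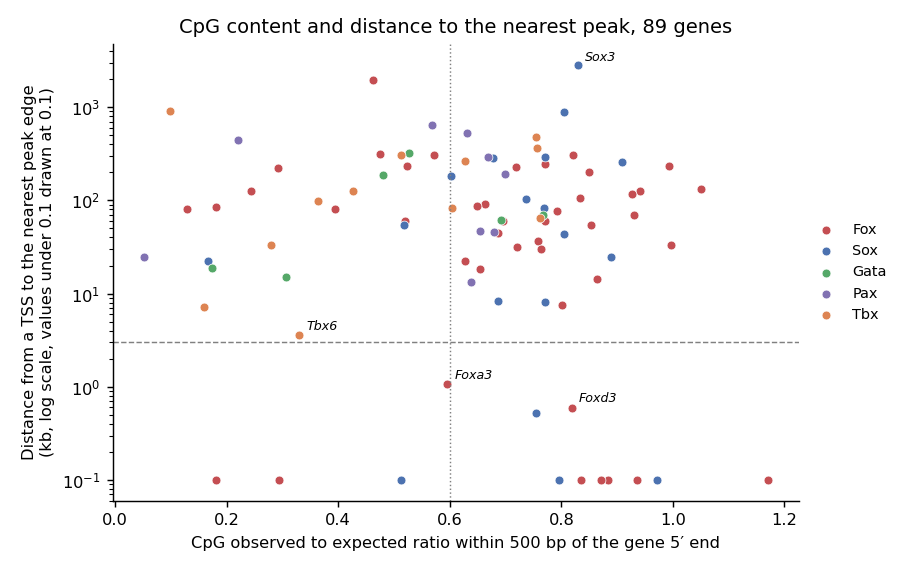
CpG ratio at the gene 5′ end against the distance in kb (log axis) from a TSS to the nearest peak edge, for the 89 genes coloured by family; the dashed line marks 3 kb and the dotted line a ratio of 0.6. The 13 genes below the dashed line spread from a ratio of 0.180 to 1.17, and the 76 genes above it reach 2854 kb.

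Finer steps of the ratio showed where the gap lay. Between 0.6 and 0.8, 2 of 35 genes had a peak (5.71%, interval 1.58% to 18.6%), *Sox4* and *Sox13*, against 57.0% of all genes in that range. Above 0.8 it was 7 of 24 (29.2%, 14.9% to 49.2%) against 68.2%. In these steps and in the windows below, CpG is that of the 5′ end. The counted peaks of *Foxn3*, *Foxp1* and *Sox13* lay 39697 bp or more from it. Between 0.4 and 0.6 it was 2 of 13 against 35.9%, a background share inside the families' interval of 4.33% to 42.2%. Up to 0.4 it was 2 of 17 against 9.70%. Of the 4 genes with the highest ratios, *Foxk2* (1.17) had a peak, and *Foxo1* (1.05), *Foxk1* (0.996) and *Foxc2* (0.993) had none.

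CpG-rich DNA also reached farther at these genes. Of 12 windows of 500 bp around the 5′ end, a median of 3 were CpG-rich at the 50 CpG-rich genes of the families without a peak and 4 at the 9 with one, against 2 in both classes of all CpG-rich genes. Within 3 kb on either side, the CpG number per 100 bp had a median of 3.51 without and 4.68 with a peak in the families, against 2.57 and 2.43 in all CpG-rich genes. Among all CpG-rich genes, the share with a peak was 61.5% at 0 to 1 windows, 63.6% at 2 to 3, 55.1% at 4 to 5 and 41.8% at 6 to 7. In the families it was 1 of 3, 3 of 28, 2 of 16 and 1 of 10. At 8 or more windows there were only *Foxd3* and *Foxo3*, and both had a peak, where 13 of all 24 CpG-rich genes did (54.2%). The number of annotated starts moved with the peaks as well: CpG-rich genes of the families had a median of 5 starts with a peak and 1 without, against 5 and 4 in all CpG-rich genes. A gene with more starts has more places where a peak is counted, and the part of this in the shares was not tested beyond the count by 5′ end alone.

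**Figure D4:**
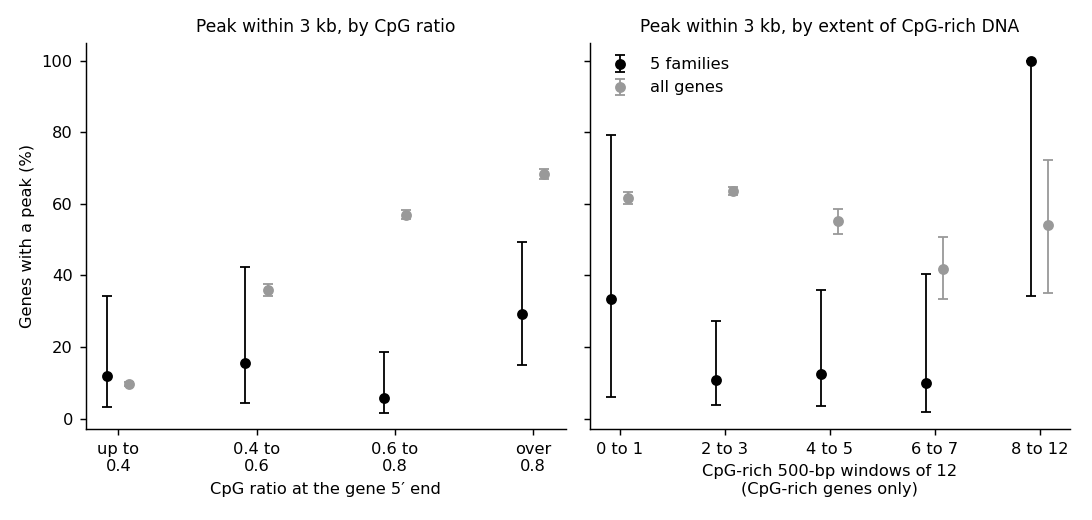
Share of genes with a peak within 3 kb (%), with 95% Wilson intervals, by CpG ratio at the 5′ end (left, all classes) and by the number of CpG-rich 500-bp windows of 12 (right, CpG-rich genes only); black points are the 5 families and grey points all protein-coding genes. Black lies below grey from a ratio of 0.4 upward, with 5.71% against 57.0% at 0.6 to 0.8, and the right-most black point stands for 2 genes.

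The class of a gene can depend on which start is taken. In total, 10 CpG-poor genes had another start with a ratio above 0.6, among them *Foxa1*, *Foxa2*, *Gata3*, *Gata4*, *Gata6* and *Pax6*, and of the 10 only *Foxj3* had a peak. At the *Foxj3* start beside its peak the ratio was 0.767.

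Promoter letters were searched on both strands in the 300 bases around the 5′ end. The GC box (GGGCGG) was found there in 7 of the 13 family genes with a peak and in 44 of 76 without (53.8% and 57.9%). In all genes it was 61.8% with and 31.8% without a peak. A gene's peak need not lie at the bases searched, since the 5′ end was inside a peak in only 7 of the 13. Among CpG-rich genes without a peak it was in 29 of 50 of the families (58.0%, interval 44.2% to 70.6%) and in 71.0% of all. CCAAT was found in 5 of 13 and 31 of 76, with 39.0% in all promoters. The ETS core CCGGAAG was found in 0 of 13, which allows up to 23.1%, and in 2 of 76, those of *Foxn2* and *Sox21*. It was in 10.8% of all promoters, in 20.6% at genes with a peak and in 4.90% at genes without. The last share lay inside the interval of the 2 of 76 (0.725% to 9.10%). The octamer ATTTGCAT was found in 1 of 13, *Sox12*, and in 0 of 76, which allows up to 3.95%, against 1.57% of all promoters. None of these letter strings contains another, and a match is no measure of binding.

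Farther out the families stayed below all genes at every distance allowed, with the smallest gap at 100 kb. With any base within 1 kb, 12 of 89 genes had a peak (13.5%), against 35.7% of all. Within 10 kb it was 18 (20.2%) against 42.7%, and within 50 kb 36 (40.4%, interval 30.9% to 50.8%) against 60.2%. Within 100 kb it was 54 (60.7%, 50.3% to 70.2%), against 70.3% of all genes, just above that interval. Among CpG-rich genes the gap stayed wider. Within 50 kb it was 42.4% in the families against 79.3% of all, and within 100 kb 62.7% (50.0% to 73.9%) against 86.3%. For the 76 genes without a peak near a start, the median distance to the nearest peak edge was 85.2 kb, close to the 90.1 kb of all genes without. The 50 CpG-rich ones had a median of 83.0 kb, against 59.3 kb of all CpG-rich genes without a peak.

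**Figure D5:**
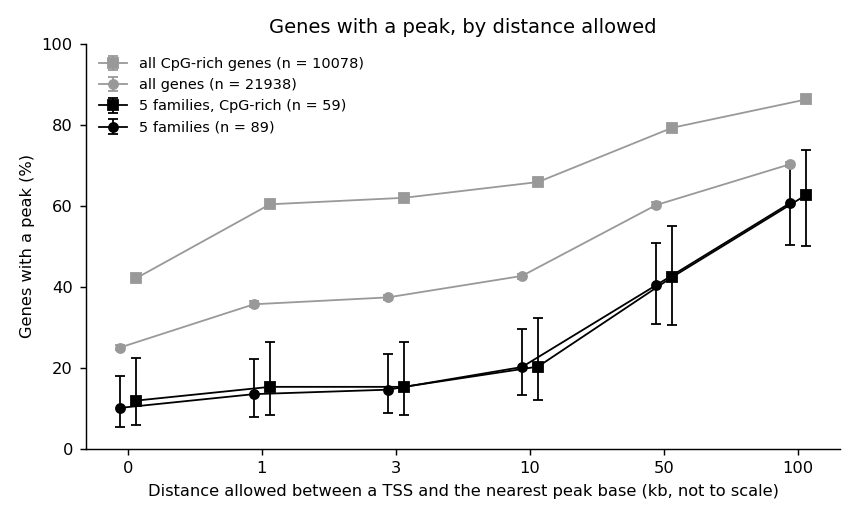
Share of genes with a peak (%) as the distance allowed between a TSS and the nearest peak base grows from 0 to 100 kb (steps not to scale), with 95% Wilson intervals; black is the 5 families, grey all genes, squares CpG-rich genes. Black rises from 10.1% to 60.7% and grey circles from 25% to 70.3%.

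For 49 of the 76 genes (64.5%) the nearest peak had its midpoint within 1 kb of a start of another gene, as for 65.4% of all genes without a peak, and for 11 the member itself held the closest start. Of the CpG-rich genes without a peak, *Foxj2* came nearest, at 7.57 kb from a peak of 2256 bp upstream of it. No start of another protein-coding gene was closer to that peak. *Sox18*, a factor of endothelium, was 8.19 kb from a peak at *Tcea2*, and *Sox8* was 8.36 kb from a peak at *Lmf1*. *Pax7*, the marker of muscle stem cells, was 13.3 kb from a peak of 256 bp, and *Foxp4* was 14.5 kb from a peak of 1149 bp inside its own intron.

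Peaks more than 3 kb from every TSS of a protein-coding gene were given to the gene with the closest such start. Starts of non-coding genes were not searched, so a distal peak may lie at one. Of 3271 such distal peaks 18 (0.550%) fell to the 89 genes, which make up 0.406% of all protein-coding genes. They fell to 16 genes (18%), where 10.6% of all genes had any. Of the 18 peaks, 15 lay outside the gene, and 3 of the 16 genes also had a peak near a start (*Foxn3*, *Foxp1* and *Sox4*). *Sox1*, an early neural factor, had 3, at 44.4, 82.1 and 84.4 kb. *Sox11* and *Sox4* had their distal peaks at 260 and 257 kb, *Foxo1* at 133 kb and *Foxk1* at 34.1 kb, so that for *Foxo1*, *Foxk1* and *Sox11* the nearest peak of the gene lay far from its CpG-rich start. The closest start in sequence need not be the gene that a distal peak acts on.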

How the data were processed

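Undifferentiated mESCs were profiled by H3K56ac ChIP-seq with single-end reads. The authors trimmed the reads, aligned them to mm10 with bowtie, keeping uniquely placed reads, removed duplicates, called peaks with MACS2, dropped blacklisted regions and merged peaks over all libraries. The deposited file gives start and end positions, and its deposited score column is 0 throughout and was not used. Merging removes which library gave a peak, and regions that short reads cannot place uniquely can lack one. Depth of the 6 libraries is not used here.

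Genes, starts and exons came from GENCODE M21 on the same assembly, with positions counted from 1. Only protein-coding genes were used, so starts of other genes are those of protein-coding genes throughout. A gene had a peak when any peak base lay within 3 kb of any of its transcript starts. The CpG ratio was the CpG number times the window length over the product of the C and G numbers. A 500-bp window counted as CpG-rich with a ratio over 0.6 and over 50% GC. Shares have Wilson intervals at 95%, medians of widths have order-statistic intervals, and the upper limit given beside a 0 is that of 3 counts. No test was run, since genes of a family are not replicates. Groups came from the sample titles. All work was done in Python 3.11.15 with numpy 2.4.6 and scipy 1.17.1, and the peak search was tested on simulated data with planted peaks.

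Every gene with a peak was to be named, with those without on a role list, the 5 CpG-rich genes without a peak that lay nearest to one, and *Sox2* and *Tbx3*. Further genes are named as examples of groups. The members and lists were chosen with earlier results of these data known. Alternatives were other distances, starts, peak widths and CpG definitions. Some genes and a sequence are not reported here.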

Additional observations from a re-analysis of the deposited data

How the results depend on the processing

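No paired analysis was possible because peak positions pooled over libraries leave nothing to pair, and likewise no replicate could be left out. Across the 69 alternatives run for 9 shares and widths, every value stayed inside the interval of the value reported. The share of genes with a peak was 9.72% (7 of 72) without J2, J3 and all K, M, N, O and P fork-heads, a larger set than the 14 listed ones. Over the 89 genes it reached 20.2% at 10 kb and was 12.4% with peaks wider than 500 bp. Among CpG-rich genes it went from 10.2% by the 5′ end alone to 22.2% with a ratio of at least 0.75 and at least 55% GC, where the background was 65.3%. With the highest ratio at any start, chosen after seeing the data, it was 14.5%. In CpG-poor genes it was 9.38% with the ratio over 1000 bp on either side (background 24%), 9.43% with the stricter ratio and GC (28.3%) and 20% at 10 kb (22.9%). Gata and Pax had no peak under any alternative, and Tbx, counted without *Tbx3*, had 2 genes at 10 kb. Adding *Sox2* and *Tbx3* was run for the share of all families only, not per family. The median width moved by over 1.5 times, to 1226 bp, with peaks within 1 kb. With 6 to 44 genes in a family, these intervals are wide, and staying inside them is a weak limit.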
